A study of Mus musculus with 8 samples.

Results

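Transcripts of 9 nuclear receptor coregulators were followed in mouse liver with and without the liver X receptors (LXRs). The genes were taken by symbol from a table of 25010 genes. They were Ncor1, Hdac3, Tbl1x, Tbl1xr1 and Gps2, which encode the NCoR corepressor complex, and the coactivator genes Ncoa1, Ncoa2, Ncoa3 and Med1. All 9 passed the filter on low values and were among the 15578 genes tested. RNA-Seq was performed on the left liver lobe of 2 WT and 2 LXRDKO mice, with 1 library per mouse. All mice were on the C57BL/6 background, were killed at 8 wk of age after a fast of 4 to 6 h. LXRDKO mice carry deletions of LXRα (gene Nr1h3) and LXRβ (gene Nr1h2) in the whole body, so the deletion is not limited to 1 cell type. The labels give no treatment besides the fast. The values are normalized counts, that is, reads counted on a gene divided by a size factor of the library. Reads on genes numbered 55772659 and 72842744 in WT livers, against 63681131 and 56281367 in LXRDKO livers. Counts of the deleted genes served to check the labels. Nr1h3 had 5785 and 5322 normalized counts in WT, against 1712 and 1826 in LXRDKO, and Nr1h2 had 2987 and 3110.0 in WT, against 925 and 1003 in LXRDKO. Counts per gene do not show whether the reads left in LXRDKO lie inside the deleted parts.

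On DNA an LXR is paired with a retinoid X receptor. In the absence of ligand the receptors recruit corepressor complexes, and oxysterol ligands favor the exchange of corepressors for coactivators. NCoR1, the product of Ncor1, is the scaffold of the corepressor complex and binds receptors through short helices called CoRNR boxes. HDAC3 is its histone deacetylase, TBL1X and TBL1XR1 are related WD40-repeat proteins, and GPS2 is a small subunit. The coactivators NCOA1, NCOA2 and NCOA3 form the p160 family and bring histone acetyltransferases to the receptor. MED1 is the Mediator subunit that contacts many nuclear receptors. All of these proteins serve numerous receptors and other transcription factors besides LXR.

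Coactivators contact receptors through LXXLL motifs, which are a leucine, a pair of any residues and a pair of leucines. The coding stretch around 1 match to this motif is shown for each coactivator, since motifs of this kind are known to contact receptors. A pair of CoRNR stretches of Ncor1 are shown for the same reason. The CoRNR pattern searched was leucine or isoleucine, a pair of any residues, isoleucine or valine, and isoleucine. The codons of the motif are in capitals and 15 bases stand on each side, all read on the coding strand of GRCm38 and each within a single exon.
Ncoa1, codons 694 to 698, chr12:4295237-4295281, minus strand: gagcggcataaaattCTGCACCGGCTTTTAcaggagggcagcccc
Ncoa2, codons 690 to 694, chr1:13174376-13174420, minus strand: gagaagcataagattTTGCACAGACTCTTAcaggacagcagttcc
Ncoa3, codons 677 to 681, chr2:166055304-166055348, plus strand: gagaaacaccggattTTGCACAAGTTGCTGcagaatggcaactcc
Med1, codons 645 to 649, chr11:98158007-98158051, minus strand: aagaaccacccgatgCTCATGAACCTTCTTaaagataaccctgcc
Ncor1, codons 1950 to 1954, chr11:62333718-62333762, minus strand: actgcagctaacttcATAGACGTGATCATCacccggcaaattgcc
Ncor1, codons 2278 to 2282, chr11:62321135-62321179, minus strand: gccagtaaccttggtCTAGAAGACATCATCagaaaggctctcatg

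Codons are counted from the start codon of the longest coding sequence of each gene in GENCODE M21. Between Ncoa1 and Ncoa2 the stretches differed at 11 of 45 bases. Ncoa3 differed from Ncoa1 at 18 bases and from Ncoa2 at 15 bases. Whole coding sequences held 7 LXXLL matches in Ncoa1, 4 in Ncoa2, 6 in Ncoa3 and 2 in Med1. The corepressor gene Ncor1 held 1 as well. At least 4 matches were found in 20.1% of the 2354 genes with 1000 or more codons, and their median was 2. Ncor1 held 5 matches to the CoRNR pattern, and 5 or more were found in 5.06% of genes of that length. Med1 and Tbl1xr1 held 1 CoRNR match each. A match describes the letters and does not show a working contact.

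Despite these related sequences, the transcripts could be told apart by reads of 50 bp. No stretch of 50 bases was shared between the transcripts of any pair of the 9 genes. The share of 50-base stretches also present in transcripts of other genes ranged from 0% for Hdac3 and Tbl1x to 2.75% for Gps2, where the other gene was Gm5221. The share was 1.52% for Ncor1 and 1.32% for Ncoa3. Ncor1 shares 82 exonic bases with Pigl on the opposite strand, Ncoa1 shares 68 with 4921501I09Rik, and Ncoa3 shares 154 with Sulf2. Whether the counting used the strand is not given in the sources used here, so reads in these short overlaps are uncertain.

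No coregulator of the 9 passed the threshold of an adjusted P value of 0.05 in LXRDKO livers. This count of 0 was the same with limma, DESeq2 and edgeR. Without adjustment, P was under 0.05 for 2 members with limma (Ncor1 and Tbl1x), for the same 2 with edgeR and for Ncor1 with DESeq2. Over all genes limma called 50 of 15578 (0.321%), edgeR called 49 (0.315%), and DESeq2 called 567 of 15797 (3.59%). Unadjusted P values under 0.05 made up 13.3% of all genes tested with limma, 13.1% with edgeR and 11.4% with DESeq2. Log2 fold changes, given as LXRDKO over WT on the log2(normalized count + 1) scale, ran from −0.33 for Ncor1 to 0.015 for Gps2. The members divided into 4 genes with log2 fold changes between −0.33 and −0.27 (Ncor1, Tbl1x, Ncoa1 and Ncoa3) and 5 genes between −0.058 and 0.015.

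Counts were below those of WT on average for 8 of 9 members, where 50.9% of all genes tested had a log2 fold change below 0. For 5 members, namely Ncor1, Tbl1x, Ncoa1, Ncoa3 and Med1, both LXRDKO livers lay under both WT livers, a pattern seen in 23.0% of all genes tested. No member had both LXRDKO livers above both WT livers, which was seen in 21.7% of genes. The median log2 fold change was −0.058 over the members and −0.0046 over all genes tested. The scaling of the libraries bears on these small values. When libraries were scaled to their total, the median log2 fold change was 0.050 over all genes (41.0% below 0) and −0.0038 over the members, 4 members had log2 fold changes above 0 (Hdac3, Tbl1xr1, Gps2 and Med1), and 4 members remained without overlap (Ncor1, Tbl1x, Ncoa1 and Ncoa3), beside 17.2% of all genes.

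**Figure D1:**
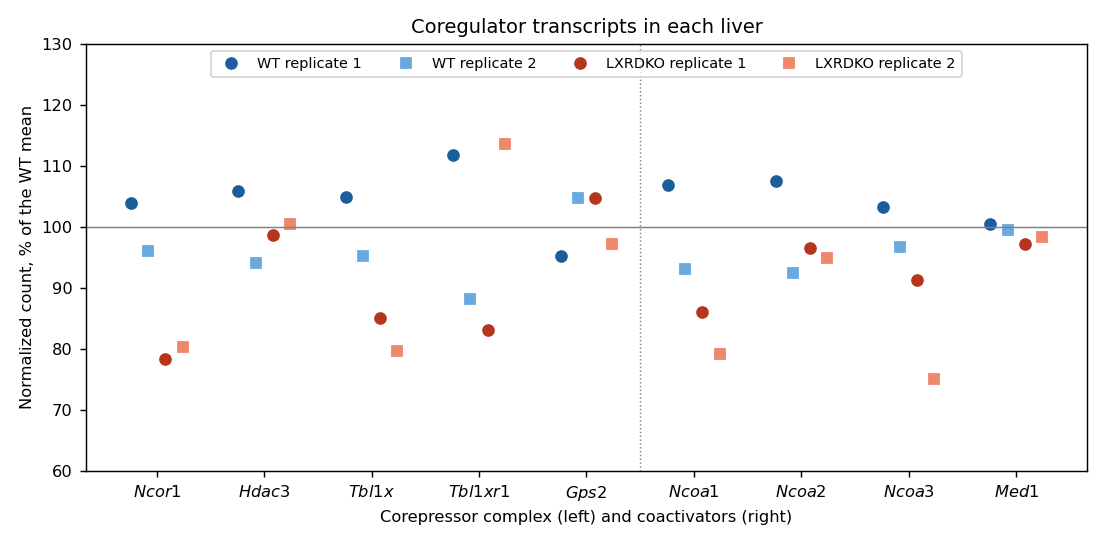
Normalized counts of the 9 coregulators in each liver as a percentage of the WT mean of the gene, with 1 point per liver and the dotted line between corepressor and coactivator genes. Ncor1 stood at 78.4% and 80.3% of the WT mean in the LXRDKO livers, while Tbl1xr1 spread from 83.0% to 114% within that genotype.

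Ncor1 had the largest difference of the 9. The gene lies on chromosome 11 from 62316426 to 62458541 (GRCm38, minus strand), with 25 annotated transcripts. Its normalized counts were 10361 and 9585 in WT livers, against 7816 and 8006 in LXRDKO livers. The gap between genotypes exceeded that within either genotype, and the LXRDKO mean was 0.793 times the WT mean. The log2 fold change was −0.33 (standard error 0.090, 95% confidence interval −0.56 to −0.11), with adjusted P = 0.232 (limma). DESeq2 gave an adjusted P value of 0.172 and edgeR gave 0.263. Ncor1 ranked 762 by P value among all genes tested.

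Among the partners of NCoR1, the deacetylase gene Hdac3 (chromosome 18) had 2490.0 and 2215 normalized counts in WT, against 2321 and 2366 in LXRDKO. The LXRDKO values fell between those of the WT livers. The estimate for Hdac3 was −0.0033 on the log2 scale, with a 95% confidence interval of −0.25 to 0.25 that leaves differences of up to about 18.6% in the upward direction possible. The sign of this value turned with edgeR (0.0035) and with scaling to the library total (0.051).

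The TBL1 genes encode proteins of similar build that share a place in the complex. Tbl1x (chromosome X, 77511013 to 77662983, plus strand) had 3790.3 and 3440.1 normalized counts in WT, against 3073 and 2883 in LXRDKO, with no overlap. For Tbl1x the log2 fold change came to −0.28 (standard error 0.097, 95% confidence interval −0.52 to −0.037, adjusted P = 0.319 with limma). Tbl1xr1 (chromosome 3, 22076652 to 22216594, plus strand) had 3069 and 2424 in WT, against 2281 and 3122 in LXRDKO. It was the most variable of the 9, with the lowest and the highest value both in LXRDKO livers and a log2 gap of 0.34 within WT and of 0.45 within LXRDKO. The interval of its log2 fold change reached from −0.50 to 0.44 around an estimate of −0.03 (adjusted P = 0.964, limma).

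Gps2 (chromosome 11, 69913888 to 69916591, plus strand) had the fewest counts of the members, with 939 and 1032 in WT, against 1033 and 957 in LXRDKO. The genotypes overlapped. The log2 fold change was 0.015 (standard error 0.11, 95% confidence interval −0.27 to 0.30, adjusted P = 0.975, limma). Over the 5 corepressor genes, summed counts were 20650 and 18697 in WT, against 16523 and 17333 in LXRDKO, a ratio of 0.860 to which Ncor1, with the most counts, contributed the most.

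Estimates for the p160 coactivators lay between −0.27 and −0.058 on the log2 scale, with confidence intervals that overlapped. Ncoa1 (SRC-1; chromosome 12, 4247362 to 4477182, minus strand) had 2242 and 1951 normalized counts in WT, against 1803 and 1659 in LXRDKO. For Ncoa1 the log2 fold change came to −0.27 (standard error 0.11, 95% confidence interval −0.55 to 0.0064, adjusted P = 0.386 with limma). Ncoa3 (SRC-3; chromosome 2, 165992636 to 166073242, plus strand) had 2626 and 2456 in WT, against 2321 and 1909 in LXRDKO. Both genes lay lower in each LXRDKO liver than in each WT liver, but in Ncoa3 the LXRDKO livers differed from each other by 0.28 on the log2 scale, slightly more than the difference between genotypes of −0.27 (standard error 0.12, 95% confidence interval −0.58 to 0.037, adjusted P = 0.424, limma).

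Ncoa2 (SRC-2; chromosome 1, 13139105 to 13374083, minus strand) had 5736 and 4931 normalized counts in WT, against 5152 and 5063 in LXRDKO. The LXRDKO values lay between those of WT. On the log2 scale the difference was −0.058 (95% confidence interval −0.32 to 0.20, adjusted P = 0.874, limma). The Mediator gene Med1 (chromosome 11, 98152154 to 98193293, minus strand) was the steadiest of the 9, with 3372 and 3339 in WT, against 3263 and 3297 in LXRDKO. Both LXRDKO values were under both WT values, yet the LXRDKO mean was 0.978 times the WT mean. The log2 fold change of Med1 was −0.033 (95% confidence interval −0.24 to 0.18, adjusted P = 0.917, limma), and it was 0.022 after scaling to the library total.

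**Figure D2:**
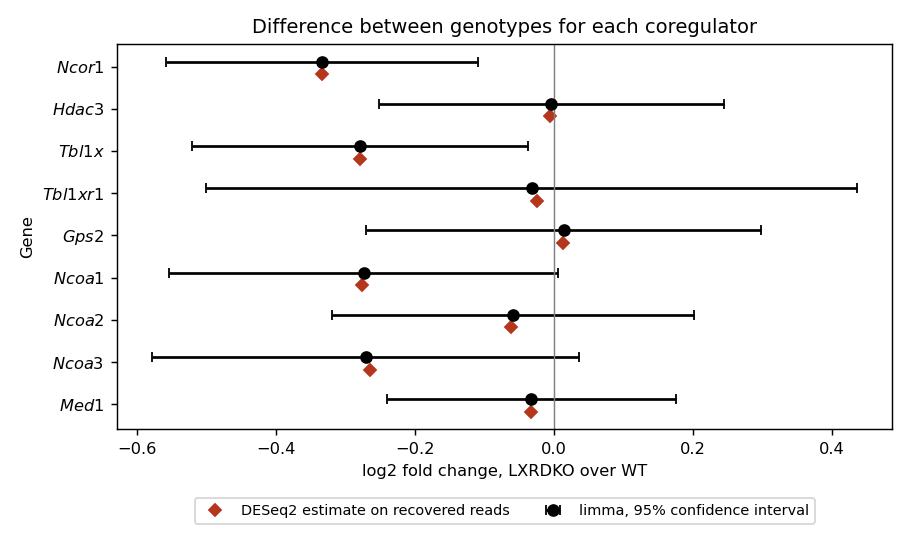
Log2 fold change of each coregulator in LXRDKO over WT livers, with limma estimates and their 95% confidence intervals in black and DESeq2 estimates as diamonds. Intervals of Ncor1 and Tbl1x do not reach 0 before adjustment over all genes, and no member had an adjusted P value under 0.05.

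With 2 livers per genotype each P value depends on a variance that limma moderates over all genes, and a two-sided exact permutation test of 1 gene cannot give a P value under 0.333. The confidence intervals show what could have been missed. They extend to a difference of −33.0% for Ncoa3 and −32.1% for Ncor1 at the lower end and to 35.4% for Tbl1xr1 at the upper end. When 1 liver is left out, 1 genotype has a single liver and the spread comes from the other genotype alone, so the lone liver is assumed to vary like the others. Leaving out 1 liver in turn gave log2 fold changes of −0.39 to −0.28 for Ncor1, −0.35 to −0.21 for Tbl1x and −0.37 to −0.17 for Ncoa1. The range was −0.41 to −0.13 for Ncoa3 and −0.040 to −0.025 for Med1. The sign could not turn for these genes, since both LXRDKO livers lay under both WT livers. Unadjusted P values under 0.05 (limma) were found for no member without WT replicate 1, for Ncor1, Tbl1x and Ncoa1 without WT replicate 2, for Ncoa3 without LXRDKO replicate 1 and for Ncor1 without LXRDKO replicate 2.

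Levels of different genes were compared as normalized counts per kb of exon, using the merged exons of all annotated transcripts. Ncor1 had the highest mean level over the 4 livers, with 809 and 748 counts per kb in WT, against 610 and 625 in LXRDKO. Gps2 came next with 585 and 643 in WT, against 644 and 597 in LXRDKO, although it had the fewest reads, since its exons span only 1604 bases. Hdac3 followed with 614, 546, 572 and 584 in the same order of livers. The ranges of these 3 genes overlapped, and Gps2 stood above Ncor1 in LXRDKO replicate 1. Within LXRDKO the mean of Gps2 (620) was slightly above that of Ncor1 (617). With merged exons Ncor1 therefore ranked first by mean in WT only. Per kb of the longest transcript, the means over the 4 livers were 989 for Ncor1 and 755 for Gps2.

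Tbl1x (409 to 537 counts per kb over the livers) lay under Hdac3 in each liver, and Med1 (373 to 385) lay under Tbl1x in each liver. Ncoa2 (315 to 367), Tbl1xr1 (256 to 351) and Ncoa3 (242 to 333) had ranges that overlapped, and Tbl1xr1 changed places with each of the others between livers. Ncoa1 was the lowest in each of the 4 livers (193 to 261). The ratio of the highest to the lowest mean level was 3.13. Length matters most for Ncoa2, with 15642 bases of merged exons but 8171 bases in its longest transcript. Using the longest transcript moved Ncoa2 from rank 6 to rank 4 and left the first 3 and last 3 genes in place.

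**Figure D3:**
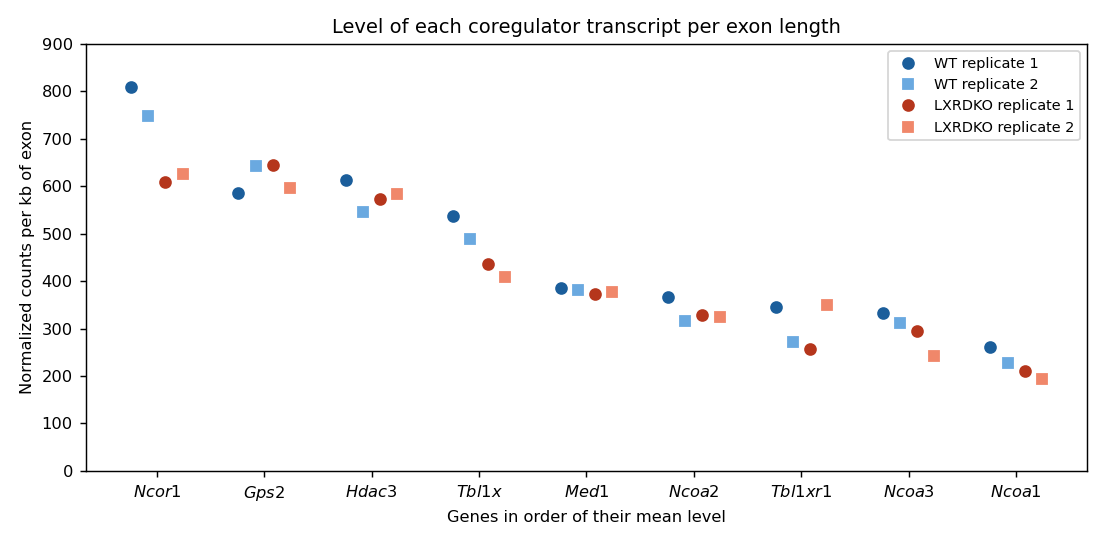
Normalized counts per kb of merged exon for each coregulator, with genes in order of their mean level and 1 point per liver. Ncor1 in WT livers (748 and 809) lies above all other values, and Ncoa1 is the lowest gene in each liver.

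In WT liver the per-kb level of Ncor1 stood at percentile 83.4 of the genes tested, that of Ncoa1 at percentile 61.5, and the other members between these. Ratios inside a library do not depend on its scaling. Ncor1 over Hdac3, per kb, was 1.32 and 1.37 in WT and 1.07 in both LXRDKO livers. The corepressor members summed per kb, divided by the coactivator members, gave 2.15 and 2.18 in WT, against 2.09 and 2.26 in LXRDKO, so the WT ratios lay between those of LXRDKO.

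Shares within paralog groups were computed per kb of merged exon. Ncoa2 took 38.2% and 36.9% of the p160 sum in WT and 39.5% and 42.6% in LXRDKO. This was a difference of 3.53 points, with no overlap and P = 0.333 in the two-sided exact permutation test, the smallest that 2 against 2 livers allow. Ncoa1 took 27.2% and 26.7% in WT and 25.2% and 25.5% in LXRDKO, also without overlap (P = 0.333, exact permutation test). The share of Ncoa3 was 35.5% ± 1.28 in WT and 33.6% ± 2.40 in LXRDKO (SD, n = 2 each, exact permutation P = 0.667). Tbl1x made up 62.6% ± 2.30 of the TBL1 sum in WT and 58.4% ± 6.47 in LXRDKO (SD, n = 2 each, exact permutation P = 0.667). In the LXRDKO livers the Tbl1x share was 63.0% and 53.8%. The size of a share depends on the length used. Without length correction Ncoa2 took 54.1% and 52.8% of the p160 sum in WT and 55.5% and 58.7% in LXRDKO.

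**Figure D4:**
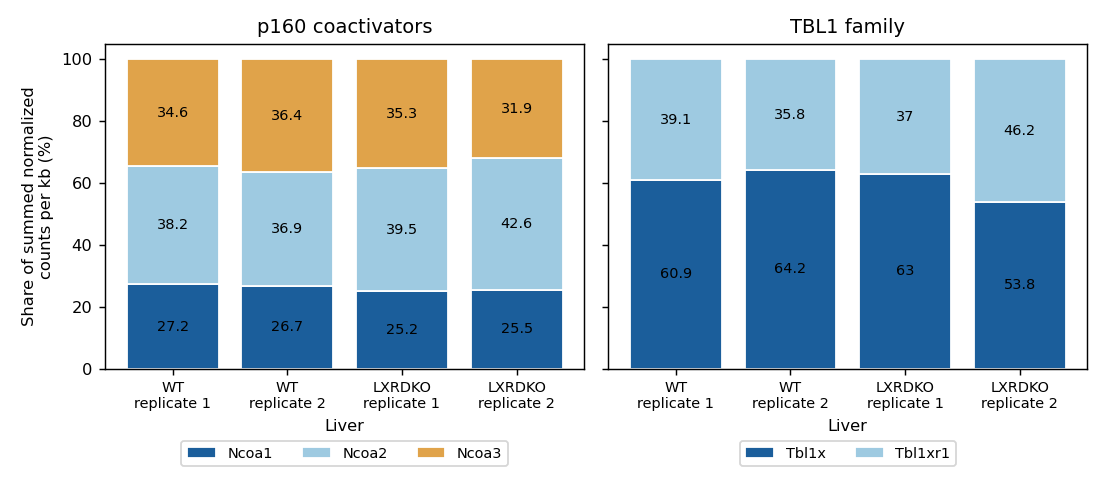
Shares of the p160 coactivators (left) and of the TBL1 genes (right) in their summed normalized counts per kb, with 1 stacked bar per liver. Ncoa2 holds 36.9% to 38.2% in WT livers and 39.5% to 42.6% in LXRDKO livers.

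Other coregulators in the same livers gave a measure of how the 9 genes compare. Of 127 further corepressors, deacetylases and related complex members, coactivators and Mediator subunits, 123 were tested. Rcor2 and Perm1 were under the filter, and Nr0b1 and Pagr1a were not analysed here. Log2 fold changes were above 0 for 46 and below 0 for 77, and their median was −0.047. With limma and with edgeR no gene of the 123 was called. Unadjusted P values under 0.05 (limma) were found for 14 of the 123, beside 13.3% of all genes tested, so the count does not set these coregulators apart. DESeq2 called 4, all lower in LXRDKO, where it called 2.03% of all genes lower. The deacetylase list (32 tested) had 27 genes below 0 and a median of −0.098, and Mediator subunits (32 tested) had 13 below 0 and a median of 0.026.

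Nr0b2, which encodes the corepressor SHP, an orphan receptor that inhibits other receptors, had 1055 and 700.3 normalized counts in WT, against 285 and 402 in LXRDKO. The genotypes were well apart, but so were the WT livers from each other. The log2 fold change of Nr0b2 was −1.34, its standard error 0.26, adjusted P = 0.134 in limma and adjusted P = 8.49e-05 in DESeq2. Coro2a, whose product was found with the NCoR complex, had 83.3 and 78.1 in WT, against 36.1 and 46.1 in LXRDKO, at low counts (log2 fold change −0.97, adjusted P = 0.253, limma, and 0.325, DESeq2). Zbtb33, encoding the NCoR-binding protein Kaiso, had a log2 fold change of −0.21 (adjusted P = 0.445, limma).

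Among deacetylases, Hdac5, a class IIa enzyme that binds the NCoR-HDAC3 complex, had 3597 and 3449 normalized counts in WT, against 2643 and 2570 in LXRDKO. The replicates of each genotype lay close together. The log2 fold change of Hdac5 came to −0.43 (standard error 0.087, adjusted P = 0.142 in limma and 0.0401 in DESeq2). Hdac4, of the same class, had 1155 and 1139 in WT, against 834 and 955 in LXRDKO (log2 fold change −0.36, adjusted P = 0.297, limma). Hdac11 had a log2 fold change of −0.45 (adjusted P = 0.252, limma).

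Of the coactivators outside the 9, Helz2, which encodes a helicase that coactivates PPARs, had 11589 and 11773 normalized counts in WT, against 7033 and 9143 in LXRDKO (log2 fold change −0.54, adjusted P = 0.218 in limma and 0.0474 in DESeq2). Trim24, a cofactor of several receptors, lay above WT in both LXRDKO livers, with 2546 and 2065 in WT, against 2928 and 3240 in LXRDKO. Trim24 had a log2 fold change of 0.43 (adjusted P = 0.279, limma, and 0.199, DESeq2). Arid1b, a subunit of SWI/SNF, had a log2 fold change of −0.29 (adjusted P = 0.287, limma). In Mediator, Med12l, a paralog of the kinase-module gene Med12, had 290 and 409 counts in WT, against 148 and 143 in LXRDKO (log2 fold change −1.24, adjusted P = 0.127 in limma and 0.000597 in DESeq2). Med13l and Cdk8, also of the kinase module, had log2 fold changes of −0.22 and −0.19 (adjusted P = 0.414 and 0.439, limma).

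**Figure D5:**
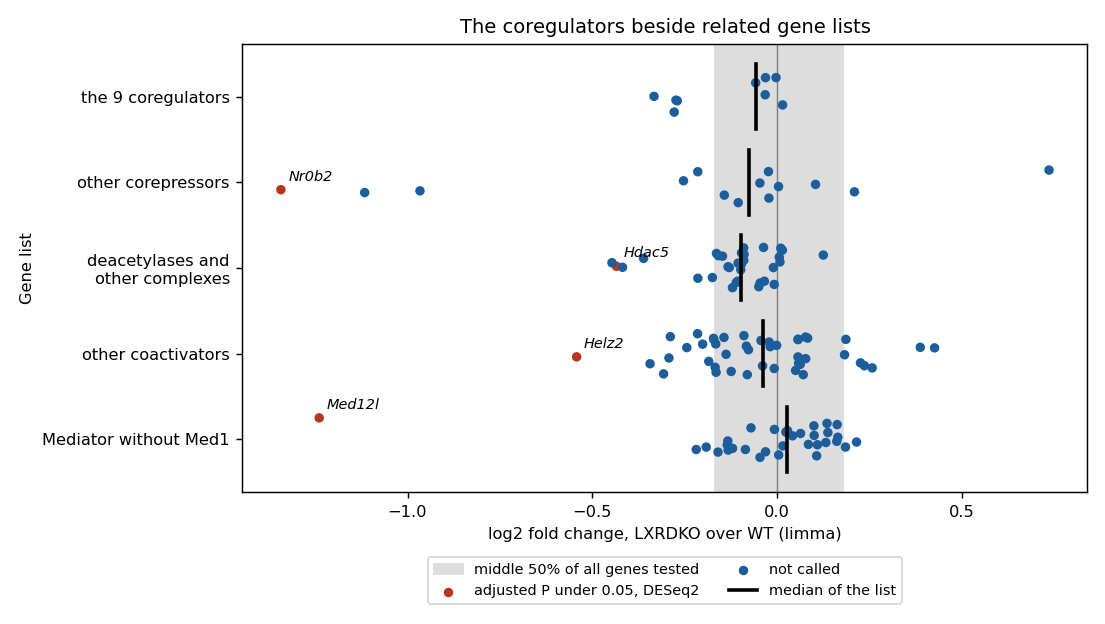
Log2 fold changes (LXRDKO over WT, limma) of the 9 coregulators and of 4 lists of related genes, with 1 point per gene, a black bar at the median of each list and grey shading over the middle 50% of all genes tested. Red points are the 4 genes that DESeq2 called, Nr0b2, Hdac5, Helz2 and Med12l, and none of the 9 coregulators is among them.

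Whole liver holds several cell types that express these coregulators, and in bulk RNA fewer cells of a type and less RNA per cell cannot be told apart. The hepatocyte list (9 of 10 markers measured, Alb the most abundant) gave summed counts of 7173090.0 and 8126712 in WT, against 7440883 and 6821571 in LXRDKO, which overlapped. Without overlap, 2 of the 9 markers were higher and 1 was lower, beside 21.7% and 23.0% of all genes tested. DESeq2 called the marker Hnf4a higher, and limma called none. The list for Kupffer cells and other macrophages (11 markers) gave 15159 and 17190 in WT, against 12018 and 7369 in LXRDKO. With limma 3 of its genes were called lower (Cd5l, Clec4f and Marco), edgeR called Timd4 as well and DESeq2 also Vsig4, 5 in all. Over all genes limma called 0.321%, edgeR 0.315% and DESeq2 3.59%. Timd4 was at 0 in 1 LXRDKO liver, and Csf1r, the most abundant marker in the list, overlapped between genotypes. The list was not uniform, since 4 of its 11 markers had log2 fold changes above 0, with up to 0.60 for Lyz2, the 1 marker higher in LXRDKO without overlap (adjusted P = 0.303, limma). The endothelial list (9 markers, Stab1 the most abundant) gave 15793 and 14491 in WT, against 12382 and 9708 in LXRDKO, with Kdr and Cdh5 called lower. Of its 9 markers 6 were lower without overlap, beside 23.0% of all genes tested, and 1 had a log2 fold change above 0 (0.23).

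Other lists had sums above those of WT. The stellate list (9 markers, Ecm1 the most abundant) gave 19214 and 22540 in WT, against 26872 and 29577 in LXRDKO. The cholangiocyte list (6 of 7 markers measured, Spp1 the most abundant) gave 2092 and 3628 in WT, against 4617 and 5477 in LXRDKO, and the list of genes of dividing cells (6 markers, Mki67 the most abundant) gave 471 and 897 in WT, against 1474 and 1059 in LXRDKO. No gene of these 3 lists was called with limma, while DESeq2 called Reln, Dcn and Epcam. Unadjusted P values under 0.05 (limma) were found for 10, beside 13.3% of all genes tested. These were 4 of 9 stellate, 3 of 6 cholangiocyte and 3 of 6 dividing-cell markers. Lymphocyte and neutrophil markers (7 of 9 tested, Ptprc the most abundant, Cd3d and S100a8 under the filter) summed to 527 and 851 in WT, against 1009 and 579 in LXRDKO, and erythroid markers (5, Alas2 the most abundant) to 10463 and 8647 in WT, against 9964 and 9304 in LXRDKO. Both sums overlapped between genotypes. In the lymphocyte and neutrophil list, however, the median log2 fold change was −0.96. Of its 7 tested markers 5 were lower in LXRDKO without overlap, beside 23.0% of all genes tested. The other 2 had log2 fold changes above 0, up to 0.55. An unadjusted P value under 0.05 (limma) was found for 4, all lower, beside 13.3% of all genes tested. None was called with limma, DESeq2 or edgeR. The macrophage and endothelial sums were lower in LXRDKO without overlap, as were Ncor1, Tbl1x, Ncoa1, Ncoa3 and Med1 and 23.0% of all genes tested. Liver by liver the match was partial. WT replicate 2 had the higher macrophage sum of its genotype, but the lower counts of all these coregulators. Between LXRDKO replicates, the macrophage sum, Tbl1x, Ncoa1 and Ncoa3 were lower in replicate 2, while Ncor1 and Med1 were slightly higher. The endothelial sum was lower in replicate 2 of each genotype, as were Tbl1x, Ncoa1 and Ncoa3. Of the 7 tested lymphocyte and neutrophil markers 5 were also lower without overlap, while the other 2 had log2 fold changes above 0. The part of these lists in the result was not tested.

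For each coregulator the gene with the most similar pattern was sought, as the smallest distance between the 4 log2 values after centering on their mean, over 15569 genes. Rrbp1 was nearest to Ncor1 (distance 0.017), with 31360.0 and 28855 normalized counts in WT, against 23275 and 24140 in LXRDKO. The nearest genes were Ikbkb for Hdac3, Glb1 for Tbl1x, Bet1 for Tbl1xr1, Srrt for Gps2, Klhl26 for Ncoa1, Ak3 for Ncoa2, Myo18a for Ncoa3 and Ktn1 for Med1. Between 25 genes (Tbl1xr1) and 1101 genes (Med1) lay within a distance of 0.1. The lowest adjusted P value of these 9 nearest genes was 0.27 (Rrbp1, limma).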

How the data were processed

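The authors extracted total RNA from frozen liver, prepared KAPA Stranded libraries with mRNA capture, sequenced single-end reads of 50 bp, and aligned them to mm10 with STAR 2.6.0c. FastQC and DESeq2 are also named in the submitters' notes. The tool that counted reads and the annotation release are not given in the sources used here. The values deposited are a signal, read counts per gene that the authors divided by DESeq2 size factors (0.877 and 1.18 for WT, 1.05 and 0.933 for LXRDKO). All values (100%) were whole multiples of 1 read within a tolerance of 0.01, so reads were recovered, and on these reads DESeq2 called 567 genes. Totals per liver, between 55772659 and 72842744 reads, set the depth.

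The main test was limma 3.58.1 in R 4.3.3 (empirical Bayes with trend) on log2(normalized count + 1), for genes averaging 10 or more normalized counts. Adjustment of P values was over all genes by the Benjamini-Hochberg method, with a threshold of 0.05. DESeq2 1.42.0 and edgeR 4.0.16 (quasi-likelihood, TMM) were run on the recovered reads. Further alternatives used a pseudocount of 0.5 or 8, a filter of 50 or none, upper-quartile and library-total scaling, robust or untrended moderation, a replicate block, and leaving out each liver. The overlap of genotypes under other scalings was added after seeing the data. Tests were tried on simulated data. The 9 genes and all lists were chosen with earlier results of these data known. Genes named are the members, the deleted pair, in each coregulator list those called by limma or DESeq2 (up to 5) and then those of lowest P without overlap until 3 were named, and for each member its nearest gene. Marker lists were described by their sums, most abundant gene and genes at 0. Outside this rule, called genes of the marker and nuclear receptor lists and Lyz2 were named after their values were seen. So were genes that share exonic bases or 50-base stretches with a member. Genes under the filter or not analysed were also named. Exon lengths, positions and coding sequences were taken from GENCODE M21 (GRCm38), in which 24987 of 25010 identifiers were found, and the sequences shown were checked against the RefSeq genome of that build. Nothing in the labels says which mice were littermates. Chromatin accessibility was not analysed here. The values of some genes are not reported here.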

Additional observations from a re-analysis of the deposited data

How the results depend on the processing

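No member was called under any of the 11 alternatives that kept all livers. None was called in the 4 fits without 1 liver either, but there the spread comes from 1 genotype alone, so these fits say little about stability. With 2 livers per genotype a missed difference of the size of the confidence intervals remains possible. The number of all genes called did depend on them. It was 50 (21 higher, 29 lower) in the main limma fit and 567 (246 higher, 321 lower) with DESeq2. The paper gives the same numbers of genes higher and lower as this DESeq2 run. With limma the count was 25 (10 and 15) with a mean of at least 50, and 1 (0 and 1) without the trend. Leaving out 1 liver gave 2 to 262 called genes, with 0 to 134 higher and 2 to 128 lower. The lowest counts were 2 without LXRDKO replicate 1 and 8 without LXRDKO replicate 2, and the others were 262 without WT replicate 1 and 157 without WT replicate 2.

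Livers with the same replicate number showed no shared deviation over genes (correlation 0.0031), which does not settle whether the mice were paired. With the replicate number as a block, 90 genes were called (35 higher, 55 lower) and no member. Unadjusted P values under 0.05 were then found for 3 members (Ncor1, Tbl1x and Ncoa1), against 2 without the block.

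The number of members with a log2 fold change above 0 was 1 in the main fit and 2 with edgeR. It was 4 with scaling to the library total, and 1 to 3 when 1 liver was left out. Signs turned only for genes near 0. Hdac3 was at 0.0035 with edgeR and 0.051 with the library total, Tbl1xr1 at 0.023 and Med1 at 0.022 with the library total. With 1 liver left out, Hdac3 ranged from −0.088 to 0.081, Tbl1xr1 from −0.26 to 0.19, Gps2 from −0.054 to 0.083 and Ncoa2 from −0.17 to 0.051. The median of the members ranged from −0.20 to −0.054 in these fits and was −0.0038 with scaling to the library total. Ncor1, Tbl1x, Ncoa1 and Ncoa3 stayed below 0 in all 15 alternatives, but in many of these the sign could not turn. Another filter, another moderation or the block leaves the fold change as it is. Leaving out 1 liver cannot turn the sign of a gene without overlap. The lowest adjusted P value of Ncor1 was 0.172 (DESeq2). The ratio of the highest to the lowest level per kb was 3.13 with merged exons and 3.79 with the longest transcript. The cause of these shifts was not tested.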

Other observations

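The receptors that these coregulators serve were listed too. Apart from the deleted pair, 34 nuclear receptor genes were tested, and 10 had log2 fold changes above 0 and 24 below 0, with a median of −0.18. DESeq2 called 1 higher and 3 lower, where it called 3.59% of all genes. With limma 1 was called, beside 0.321% of all genes tested, namely Nr3c2, the mineralocorticoid receptor gene. It had 1661 and 1760.4 normalized counts in WT, against 784 and 780.4 in LXRDKO (log2 fold change −1.13, standard error 0.10, adjusted P = 0.0302). DESeq2 also called Ppara, the fatty acid receptor gene, with 15122 and 12695 counts in WT, against 8264 and 10337 in LXRDKO (log2 fold change −0.58, adjusted P = 0.214 in limma and 0.0282 in DESeq2). Nr2f2, encoding COUP-TFII, had 3664 and 4109 in WT, against 2710 and 2675 in LXRDKO (adjusted P = 0.00991 in DESeq2 and 0.129 in limma). Hnf4a, a receptor that maintains hepatocyte identity, was the gene of the list with the most counts and lay above WT, with 44147 and 38999 in WT, against 70769 and 56007 in LXRDKO (adjusted P = 0.0115 in DESeq2 and 0.224 in limma).

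Promoter sequences of 300 bases from RefSeq on GRCm38 were at hand for 6 of the 9 coregulators (Ncor1, Tbl1x, Tbl1xr1, Gps2, Ncoa1 and Med1). Letters were searched on both strands. The half-site AGGTCA repeated in the same direction after 4 bases of any kind, as LXR heterodimers are known to prefer, was in none of them and in those of 0.0148% of 27025 genes. AGGTCA alone was in none of them and in those of 18.1% of genes. CCAAT, the core letters of NF-Y sites, was in those of Gps2 and Med1 and in those of 41.1% of genes. The perfect repeat is so rare that almost any 6 genes would lack it. Its absence here therefore does not bear on LXR binding.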
